A study of Mus musculus with 6 samples.

Results

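The 35 genes described here encode the folding and quality control machinery of the endoplasmic reticulum (ER), with its chaperones, disulfide enzymes, ER-associated degradation (ERAD), stress sensors, translocon and export coat. They were chosen by symbol, with earlier results of these data known, and all 35 were found in the deposited table of 43346 genes. All 35 passed the filter on low counts, which left 20210 genes to test. The RNA was taken from bones of the hindlimbs and forearms of C57BL/6 mouse pups, 1 day of age, freed of soft tissue. Of the 6 libraries 3 were wild type and 3 carried the label Hdac3 CKO, where CKO stands for a conditional knockout that the study's design ties to Prx1. Hdac3 encodes a histone deacetylase, and Cre recombinase under the Prx1 enhancer acts in limb bud mesenchyme, the source of bone, cartilage and tendon cells but not of blood cells or muscle fibres. The labels name neither the floxed allele nor whether the wild type pups carried Cre, and do not tell whether pups were pooled or sampled more than once. Replicate numbers were given here by order in the series, so equal numbers in both genotypes do not mark matched libraries. The p-values thus rest on the spread among these 6 libraries, part of which may be technical. In bulk RNA, more cells of a type and more RNA per cell cannot be told apart.

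Cells that secrete much protein, such as osteoblasts laying down collagen, fold it in the ER. There the chaperone BiP (Hspa5) holds unfolded chains, protein disulfide isomerases form and shuffle disulfide bonds, and calnexin and calreticulin retain glycoproteins until they are folded. Chains that fail are drawn back into the cytosol through the ligase complex of Syvn1 and Sel1l and degraded, which is ERAD. When unfolded protein accumulates, the sensors Ern1 (IRE1), Atf6 and Eif2ak3 (PERK) signal to the nucleus. Cleaved ATF6 binds the ER stress response element (ERSE) in promoters of chaperone genes together with the CCAAT factor NF-Y, the spliced product of Xbp1 acts on an overlapping set of genes, and PERK raises translation of ATF4.

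Many members shared a promoter element. RefSeq promoter windows, from 250 bases before to 50 bases after the start site (build GRCm38.p6), were matched for 31 of the 35 members, 2 of them through a newer symbol. The ERSE, spelled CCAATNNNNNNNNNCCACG and searched on both strands, was present in 10 of these 31 members, or 32.3%. It was present in 37 of all 27025 genes with such windows, or 0.137%. Since the ERSE is known from promoters of chaperone genes, a higher share among members was built into the choice of motif and tests nothing. The shorter ERSE-II, with ATTGG, 1 further base of any kind and then CCACG, was present in 2 members, Herpud1 and Dnajb11, and in 0.0444% of all genes. Both motifs contain CCACG and a CCAAT block in 1 orientation, and no member held both. The stretches below are shown because they carry the element in members whose levels differed in their relation to genotype, with the first 5 higher in every Hdac3 CKO library than in any wild type library and the other 4 not. Each is written 5′ to 3′ on the strand of the gene, with the CCAAT and CCACG blocks or their reverse complements in capitals.
Hspa5 (chr2:34772015-34772053, plus strand): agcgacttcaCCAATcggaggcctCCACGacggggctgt
Calr (chr8:84847065-84847103, minus strand): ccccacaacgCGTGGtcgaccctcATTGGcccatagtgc
Creld2 (chr15:88819510-88819548, plus strand): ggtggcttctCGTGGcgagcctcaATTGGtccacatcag
Syvn1 (chr19:6046522-6046560, plus strand): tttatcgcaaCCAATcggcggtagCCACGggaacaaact
Herpud1 (chr8:94386367-94386397, plus strand): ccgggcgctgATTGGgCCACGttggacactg
Hsp90b1 (chr10:86705523-86705666, minus strand): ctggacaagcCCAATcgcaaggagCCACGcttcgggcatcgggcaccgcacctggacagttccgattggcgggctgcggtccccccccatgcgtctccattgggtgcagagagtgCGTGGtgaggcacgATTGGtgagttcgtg
Canx (chr11:50325790-50325828, minus strand): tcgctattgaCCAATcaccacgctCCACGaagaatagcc
Dnajc3 (chr14:118937817-118937855, plus strand): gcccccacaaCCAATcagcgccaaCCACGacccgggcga
Ero1lb (chr13:12565672-12565710, plus strand): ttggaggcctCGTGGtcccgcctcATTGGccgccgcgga

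The ERSE lay upstream of the start site in all 10 members that held it, and its orientation varied. In Hspa5 the match began 65 bases before the start site and read forward, and in Calr it began 162 bases before it and read in reverse. Hsp90b1 held 2 matches in opposite orientations. The XBP1 element core TGACGTG was present in 2 members, Hspa5 and Sec24d, or 6.45%, against 2.22% of all genes. The ATF4 composite element, TGATGNAA, was present in 1 member, Herpud1, or 3.23%, against 4.51% of all genes. These shorter motifs were also searched on both strands, and a match of letters does not show binding.

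Library totals ranged from 43389262 to 50927978 counts. Hdac3 stood at 48.7 ± 1.44 CPM (SD, n = 3; counts scaled by library size and TMM factors) in wild type, against 29.8 ± 1.77 CPM (SD, n = 3) for Hdac3 CKO, a log2 fold change of -0.71. Hdac3 CKO replicate 1 stood apart from the other libraries in base composition. Per 10 percentage points of transcript GC content, log2 CPM in that library sloped by 0.41 relative to the mean of all libraries, while the other 5 libraries lay between -0.17 and 0.017. The bones held osteoblast RNA in every library, with the 10 osteoblast markers summing to 51076 to 67691 CPM for wild type, against 78787 to 111114 CPM in Hdac3 CKO, and 0 of the 10 passed the test. Most of each sum was Col1a1 and Col1a2, both above 0, whose values are given further on. Among the other markers Ibsp, Sparc and Sp7 were higher in every Hdac3 CKO library, at log2 fold changes of 1.21, 0.65 and 0.38. Spp1 (0.51) and Alpl (0.18) also lay above 0, with overlap. Below 0 were Runx2 (-0.44), lower in every Hdac3 CKO library than in any wild type library, Bglap (-0.23) and Bglap2 (-0.42). The 6 chondrocyte markers were highest in replicate 3 of each genotype, at 6513 CPM for wild type and at 13834 CPM in Hdac3 CKO, against 710.0 to 1315 CPM in the other 4 libraries. Of 6 macrophage markers 5 rose, from 199 to 239.6 CPM summed over wild type to 382 to 489.9 CPM in Hdac3 CKO. Of 6 neutrophil markers 4 fell, from 78.3 to 230.0 CPM to 15.1 to 24.4 CPM, and of 5 erythroid markers 2 fell, from 156 to 253 CPM to 94.8 to 117 CPM. Muscle fibre markers, of which 0 of 5 passed, summed to 22420.4 to 26749 CPM in wild type and were highest in Hdac3 CKO replicate 1, at 40205 CPM. Plasma cells are rich in ER proteins, and of 7 tested plasma and B cell markers 0 rose and 1, Pou2af1, fell. This list summed to 115 to 141 CPM for wild type against 131 to 167 CPM for Hdac3 CKO, mostly from Sdc1. Cd79a had 65 to 208 counts per wild type library and 16 to 42 per Hdac3 CKO library, while the J chain gene Igj had 2 to 13 counts per library and was not tested. The part of these cell types in the levels of the ER genes was not tested.

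Most ER genes were modestly higher on average in Hdac3 CKO bones, and no member passed the test. Of the 35 members 0 rose and 0 fell at an adjusted p under 0.05 in edgeR's quasi-likelihood test, Benjamini-Hochberg adjusted over all tested genes, against 1.18% of all tested genes. The log2 fold change was above 0 in 29 of 35 members, against 50.1% of all tested genes, and its median was 0.20, against 0.00098 over all tested genes. In 19 members all 3 Hdac3 CKO libraries lay above all 3 wild type libraries, against 11.5% of all tested genes, and in 1 member they lay below, against 10.9%. At an unadjusted p under 0.05 there were 13 members, all higher in Hdac3 CKO, against 7.79% of all tested genes in that direction and 7.20% in the other. DESeq2 called 4 members higher, Syvn1, Sec24d, P4hb and Sdf2l1, against 2.31% of the genes it tested in that direction and 4.20% in either. The size of the difference depended on the scaling. Under scaling by library totals, without TMM factors, the members had a median of 0.011 and all tested genes one of -0.18, 18 members lay above 0, and 7 were higher without overlap, against 4.32% of all tested genes. In the deposited RPKM values, whose divisor was not the library total, 5 were, against 4.65%. Statements on overlap of libraries elsewhere in the text and figures refer to CPM with TMM factors, unless another scaling is named. Relative to the median of all tested genes, 29 of 35 members stood higher with TMM factors, and 29 with library totals. Scaling factors move all genes by nearly the same amount, so this match was fixed in advance and shows nothing about the members.

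**Figure D1:**
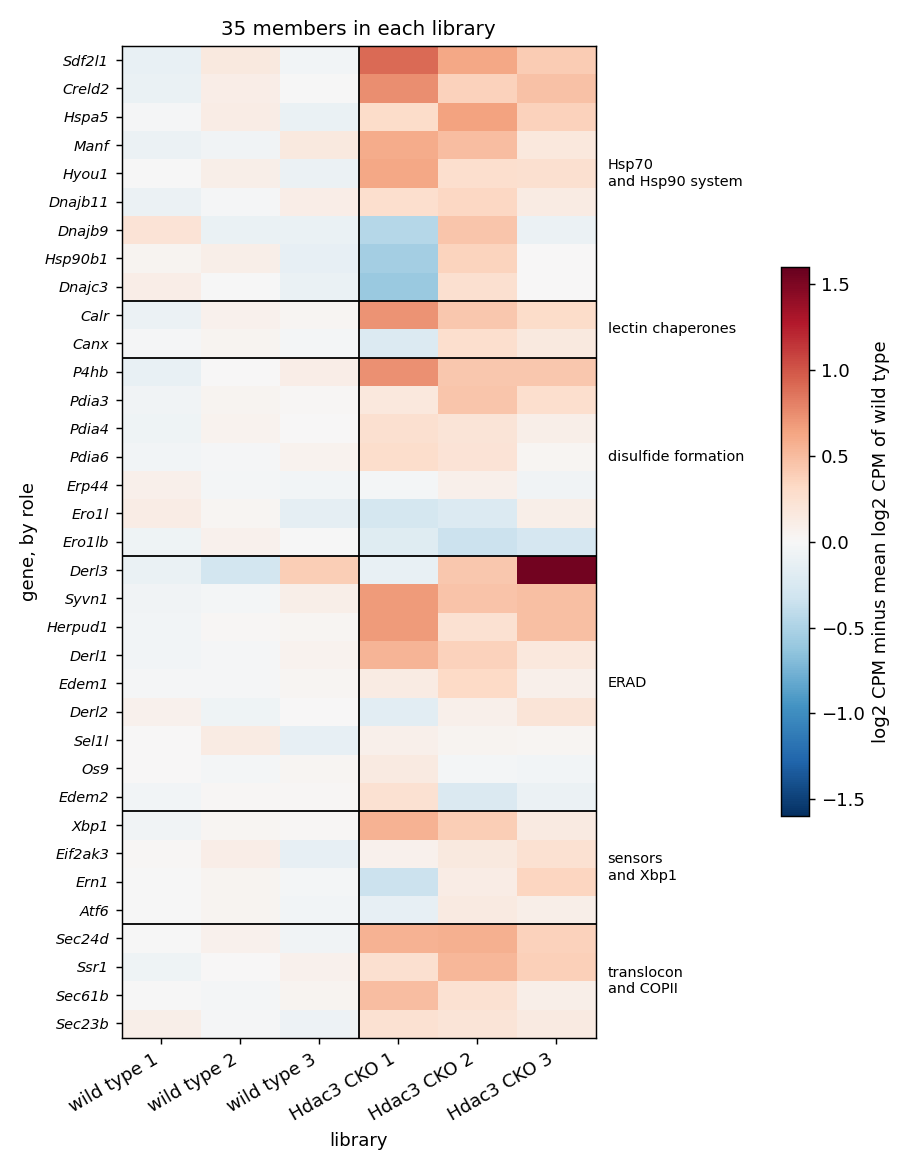
Each cell gives log2 CPM of a member in a library minus its mean log2 CPM over the 3 wild type libraries, with genes grouped by role and libraries in columns. Most rows are red in the 3 Hdac3 CKO columns, while Hsp90b1, Dnajc3 and Dnajb9 are blue in replicate 1 and red in replicate 2.

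Hspa5, which encodes BiP (chromosome 2, 34771970 to 34777547), stood at 356, 393 and 336 CPM across wild type libraries, against 442, 566 and 467 CPM across those of Hdac3 CKO. All 3 Hdac3 CKO libraries lay above all 3 wild type libraries, and replicate 2 was the highest. The log2 fold change was 0.44 ± 0.15 (SE), with a 95% interval of 0.12 to 0.77 and an adjusted p of 0.201 (edgeR). Sdf2l1, which encodes a partner of BiP and its J-domain cochaperones (chromosome 16, 17130138 to 17132383), stood at 5.13, 6.22 and 5.43 CPM across wild type libraries, against 10.4, 8.58 and 7.37 CPM across those of Hdac3 CKO. Its libraries did not overlap, and at 1.57 times the wild type level it had the largest ratio among members other than Derl3, with a log2 fold change of 0.65 ± 0.19 (SE) and an adjusted p of 0.153. The counts behind it were low for the family, 267 to 431 per library. In RPKM its libraries overlapped, with wild type replicate 2 at 5.03 and Hdac3 CKO replicate 3 at 4.96. Creld2, a protein of the ER lumen known to be induced by ER stress, stood at 15.4, 17.8 and 16.5 CPM across wild type libraries, against 27.7, 21.4 and 22.8 CPM across those of Hdac3 CKO, a log2 fold change of 0.53 ± 0.15 (SE). Replicate 1 was the highest Hdac3 CKO library for Creld2 and Sdf2l1 and the lowest for Hspa5. By CPM it still lay above wild type in all 3 genes.

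Manf, a small secreted ER protein that binds BiP, stood at 47.8, 49.1 and 56.8 CPM across wild type libraries, against 76.9, 72.2 and 57.6 CPM across those of Hdac3 CKO. The highest wild type library and the lowest Hdac3 CKO library, both replicate 3, were close, and its log2 fold change was 0.43 ± 0.15 (SE). Hyou1, a nucleotide exchange factor of BiP, stood at 58.3, 62.5 and 54.6 CPM across wild type libraries, against 89.3, 70.1 and 69.8 CPM across those of Hdac3 CKO, a log2 fold change of 0.39 ± 0.14 (SE), with no overlap, and of 0.25 without replicate 1 of Hdac3 CKO, its highest library. Dnajb11, a J-domain cochaperone, stood at 0.24 (-0.032 to 0.52), also without overlap. Other genes share 9.25% of the exon bases of Manf, and since the strand setting of the counting is not stated, reads there cannot be told apart.

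In the other 3 chaperones of this group the Hdac3 CKO libraries lay on both sides of wild type. Hsp90b1, the Hsp90 chaperone of the ER (chromosome 10, 86690209 to 86705509), stood at 428, 444 and 379 CPM across wild type libraries, against 286, 531 and 419 CPM across those of Hdac3 CKO. Replicate 1 of Hdac3 CKO was the lowest of the 6 libraries and replicate 2 the highest. The log2 fold change was -0.018 ± 0.21 (SE). Other genes share 15.7% of its exon bases. Dnajc3, a J-domain cochaperone, stood at 87.7, 81.3 and 75.5 CPM across wild type libraries, against 54.0, 97.2 and 81.4 CPM across those of Hdac3 CKO, and Dnajb9, another of them, at 16.5, 13.2 and 13.2 CPM across wild type libraries, against 10.3, 19.4 and 13.4 CPM across those of Hdac3 CKO. In both, replicate 1 of Hdac3 CKO was again the lowest of the 6 libraries and replicate 2 the highest. These 3 genes were singled out after their values were seen. Without Hdac3 CKO replicate 1 their log2 fold changes were 0.18 for Hsp90b1, 0.12 for Dnajc3 and 0.18 for Dnajb9. Hsp90b1 and Dnajc3 held the ERSE, as did Hspa5 and Creld2 (stretches above). Of the 9 chaperones and cofactors, 7 lay above 0, against 50.1% of all tested genes, and 6 did not overlap, against 22.5% in either direction. Their median was 0.39.

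Of the lectin chaperones 1 of 2 was higher in every Hdac3 CKO library, against 11.5% of all tested genes. Calr, which encodes the soluble calreticulin (chromosome 8, 84841850 to 84846934), stood at 365, 409 and 401 CPM across wild type libraries, against 646, 527 and 481 CPM across those of Hdac3 CKO. Its libraries did not overlap, and the log2 fold change was 0.49 ± 0.15 (SE), with an adjusted p of 0.171 (edgeR). Canx, which encodes the membrane-bound calnexin, stood at 239, 248 and 237 CPM across wild type libraries, against 208, 292 and 270.1 CPM across those of Hdac3 CKO. Replicate 1 of Hdac3 CKO was the lowest of the 6 libraries and the other 2 were the highest, with a log2 fold change of 0.086 and a 95% interval of -0.25 to 0.42. Without replicate 1 it was 0.21. Whether the 2 genes differed in their change was not tested.

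P4hb was the most abundant member per length. It encodes protein disulfide isomerase, which is also the beta subunit of the prolyl 4-hydroxylase that modifies collagen. In the deposited RPKM values, which scale counts by gene length, it averaged 203 ± 28.8 (SD, n = 3) in wild type, followed by Calr at 113 ± 16.1, Pdia3 at 96.5 ± 11.7, Hsp90b1 at 85.8 ± 11.2 and Hspa5 at 71.1 ± 10.7. P4hb lay above the other 4 by more than the SD, while neighbours among those 4 lay within 2 SD of each other. The least abundant were Ero1lb at 0.907 ± 0.120 and Derl3 at 0.166 ± 0.0441 RPKM.

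P4hb (chromosome 11, 120560298 to 120573253) stood at 643, 701 and 747 CPM across wild type libraries, against 1153, 937 and 936 CPM across those of Hdac3 CKO. Its libraries did not overlap, the log2 fold change was 0.53 ± 0.15 (SE), or 1.45 times the wild type level, and the adjusted p was 0.139 (edgeR). Pdia3, the isomerase that works with calnexin and calreticulin, stood at 350.2, 376 and 368 CPM across wild type libraries, against 410.0, 494 and 437 CPM across those of Hdac3 CKO, also without overlap, at 0.29 ± 0.13 (SE). Pdia4 (0.19) and Pdia6 (0.18), further isomerases, had smaller values, and of these Pdia4 did not overlap. The oxidases that recharge the isomerases, Ero1l and Ero1lb, had log2 fold changes below 0 that did not pass the test. Ero1lb stood at 4.42, 4.85 and 4.60 CPM across wild type libraries, against 4.02, 3.64 and 3.84 CPM across those of Hdac3 CKO, and it had the lowest log2 fold change of the 35 members, -0.27 ± 0.18 (SE), with an adjusted p of 0.502. It was the 1 member in which all Hdac3 CKO libraries lay below wild type, at 155 to 250 counts per library. Ero1l overlapped at -0.13 (-0.45 to 0.20), as did Erp44, which retains the oxidases in the early secretory pathway, at -0.0034 (-0.27 to 0.26). Of the 7 genes of disulfide formation, 4 lay above 0, against 50.1% of all tested genes, and the median was 0.18.

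Among the ERAD genes Syvn1, Herpud1, Derl1 and Edem1 were higher in every Hdac3 CKO library than in any wild type library. Syvn1, the ubiquitin ligase at the core of the pathway (chromosome 19, 6046576 to 6053712), stood at 44.2, 44.9 and 48.8 CPM across wild type libraries, against 73.8, 62.9 and 64.1 CPM across those of Hdac3 CKO. All Hdac3 CKO libraries lay above the highest wild type library, and it had the smallest p of the members, with a log2 fold change of 0.54 ± 0.12 (SE) and an adjusted p of 0.080 (edgeR). Its partner Sel1l stood at 0.044 (-0.23 to 0.32), with overlap. Herpud1, a stress-induced scaffold of the same complex, stood at 43.1, 44.7 and 45.1 CPM across wild type libraries, against 71.2, 52.3 and 61.6 CPM across those of Hdac3 CKO, a log2 fold change of 0.48 ± 0.14 (SE) with no overlap. Derl1, a derlin that helps to form the channel back to the cytosol, stood at 88.8, 90.3 and 95.4 CPM across wild type libraries, against 133, 118.49 and 103 CPM across those of Hdac3 CKO, a log2 fold change of 0.37 ± 0.13 (SE) with no overlap.

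Derl2, a second derlin, stood at 0.047 (-0.26 to 0.36). Derl3 had the highest log2 fold change of the members, 0.77 ± 0.51 (SE), on 10 to 33 counts per library, and its libraries overlapped. It stood at 0.244, 0.213 and 0.346 CPM across wild type libraries, against 0.242, 0.352 and 0.767 CPM across those of Hdac3 CKO, with replicate 3 of Hdac3 CKO the highest, and without that library the log2 fold change was 0.16. The glycan-recognising factors Edem1 (0.18), Edem2 (-0.016) and Os9 (0.025) had small log2 fold changes, and under library totals Edem1 and Os9 lay below 0. Of 9 ERAD genes, 8 lay above 0, 4 did not overlap and the median was 0.18. Over all tested genes 50.1% lay above 0 and 22.5% did not overlap in either direction.

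In CPM the libraries of the 3 sensors overlapped between the genotypes, and those of Xbp1 did not. Of all tested genes 11.5% were higher in Hdac3 CKO without overlap. Ern1 stood at 21.4, 22.2 and 21.2 CPM across wild type libraries, against 16.9, 23.4 and 27.3 CPM across those of Hdac3 CKO, a log2 fold change of 0.064 ± 0.18 (SE) with a 95% interval of -0.33 to 0.46. Its lowest and highest values were both in Hdac3 CKO. Atf6 stood at 48.5, 50.02 and 47.2 CPM across wild type libraries, against 44.5, 53.6 and 51.9 CPM across those of Hdac3 CKO, at 0.041 ± 0.12 (SE) with an interval of -0.24 to 0.32. Eif2ak3 stood at 40.5, 42.6 and 36.5 CPM across wild type libraries, against 41.6, 44.2 and 47.3 CPM across those of Hdac3 CKO, at 0.15 ± 0.13 (SE) with an interval of -0.13 to 0.44. Hdac3 CKO libraries spread wider than wild type in Ern1 and Atf6. Under library totals the 3 sensors lay below 0, at -0.11, -0.14 and -0.028. Xbp1 (chromosome 11, 5520659 to 5525893) stood at 92.2, 98.7 and 97.9 CPM across wild type libraries, against 141, 127 and 106 CPM across those of Hdac3 CKO without overlap, at 0.37 ± 0.14 (SE) and an adjusted p of 0.248 (edgeR). In the deposited RPKM values the Xbp1 libraries overlapped, with wild type replicate 2 at 27.3 and Hdac3 CKO replicate 3 at 24.3. Without Hdac3 CKO replicate 1 its log2 fold change was 0.26, and the lowest over all alternatives was 0.18. Gene counts add the spliced and unspliced Xbp1 mRNA together, so splicing, like cleavage of ATF6 and phosphorylation of PERK, was not measured.

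All 4 members of the translocon and of the COPII coat, which buds vesicles from the ER, were higher in every Hdac3 CKO library than in any wild type library. Of all tested genes 11.5% were. Sec24d, a cargo adaptor of the coat known for the export of procollagen, stood at 111, 117 and 107 CPM across wild type libraries, against 164, 165 and 145 CPM across those of Hdac3 CKO. The log2 fold change was 0.50 ± 0.12 (SE), with an adjusted p of 0.094 (edgeR). Ssr1, a subunit of the translocon-associated complex, stood at 198, 207 and 217 CPM across wild type libraries, against 248, 299 and 269 CPM across those of Hdac3 CKO, at 0.39 ± 0.13 (SE). Sec61b, a subunit of the translocon channel, was at 0.29 (-0.023 to 0.60), and Sec23b, of the inner coat, at 0.20 (-0.081 to 0.47). Without replicate 1 of Hdac3 CKO Sec61b was at 0.16, and with the GC and length offsets described further on Sec61b was at 0.12 and Sec23b at 0.57, above its interval. Under library totals Sec24d, Ssr1, Sec61b and Sec23b stood at 0.31, 0.21, 0.10 and 0.011.

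**Figure D2:**
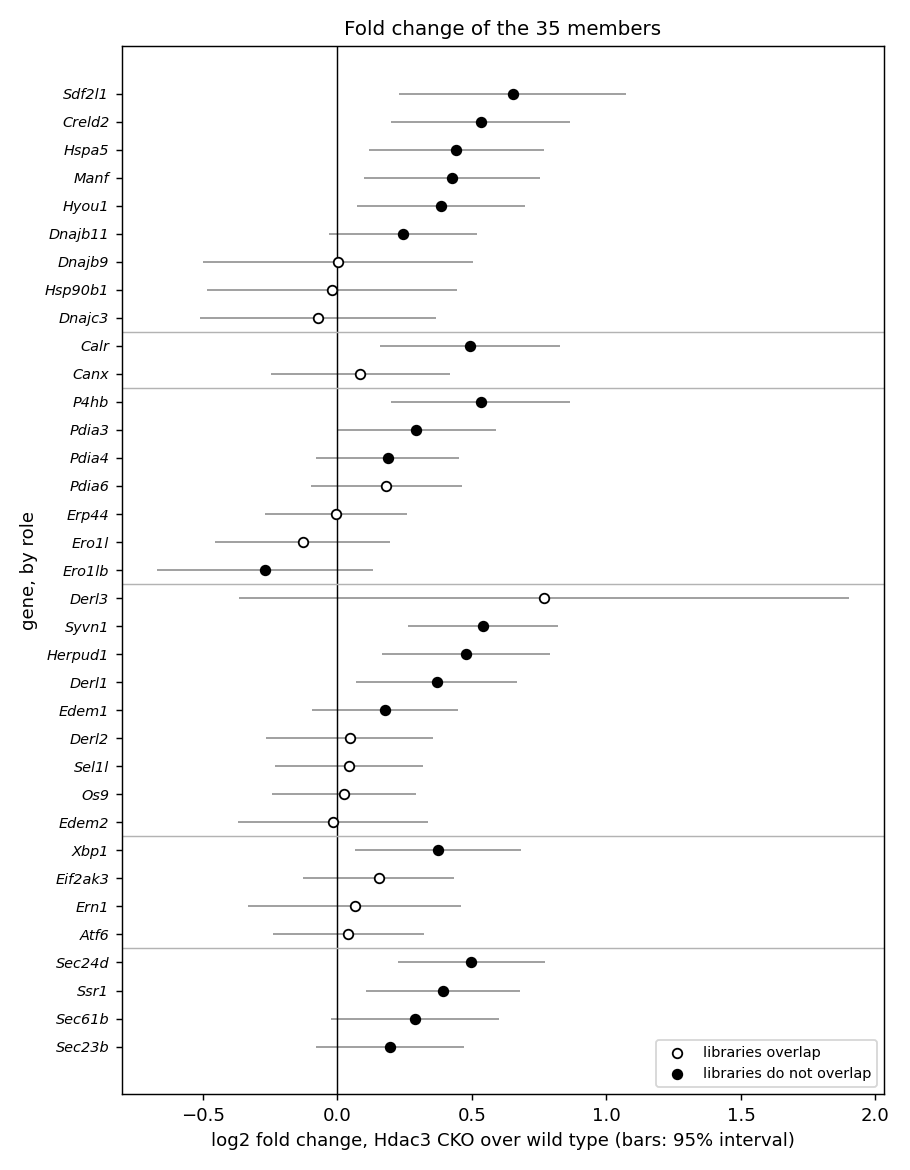
Points give the log2 fold change of each member, Hdac3 CKO over wild type, with 95% intervals from the fit, and filled points mark members whose libraries did not overlap. The filled points lie above 0 except for Ero1lb, and the interval of Derl3 is the widest.

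Part of the variation among members moved with GC content and with replicate 1 of Hdac3 CKO. Transcript GC content ranged from 40.6% in Dnajb9 to 57.3% in Derl3. Across the 35 members the log2 fold change correlated with GC content at Pearson's r = 0.65 and Spearman's rho = 0.62, and across 19976 tested genes r was 0.34. These points share their libraries and are a description. Of the 17 members above the median GC content 16 lay above 0, with a median of 0.43, and of the other 18, 13 did, with a median of 0.066. In replicate 1 of Hdac3 CKO alone, r between GC content and the deviation from wild type was 0.67, and in the mean of replicates 2 and 3 it was 0.42.

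With an offset for GC content and length in each library, the members as a whole stood higher, with a median of 0.32 against 0.029 for all tested genes, and 32 of 35 lay above 0. Hspa5 (0.58, adjusted p 0.049997) and Ssr1 (0.63, adjusted p 0.038) then passed edgeR's quasi-likelihood test, 2 members higher against 1.09% of all tested genes in that direction and 1.92% in either, and 0 passed with the offsets and without replicate 1 of Hdac3 CKO. Hsp90b1 stood at 0.22, Canx at 0.35, Dnajc3 at 0.15 and Erp44 at 0.29, all of them GC-poor genes, and Ero1lb at -0.057. The GC-rich genes Sdf2l1, Syvn1 and P4hb moved down, to 0.48, 0.41 and 0.42. Without replicate 1 of Hdac3 CKO and with no offset, 31 of 35 members lay above 0 and 25 were higher without overlap, against 14.7% of all tested genes. Without both cartilage-rich libraries, replicate 3 of each genotype, the counts were 25 and 20, against 22.4% without overlap. In neither case did a member pass the test.

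**Figure D3:**
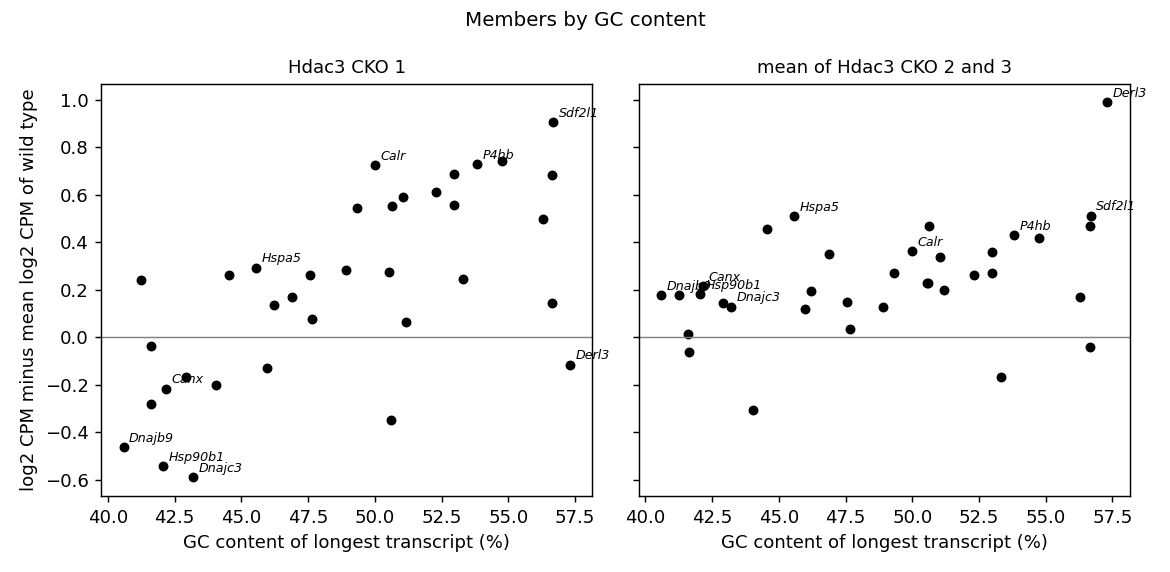
Each point is a member, placed by the GC content of its longest transcript (percent) and by log2 CPM minus the wild type mean, for Hdac3 CKO replicate 1 on the left and for the mean of replicates 2 and 3 on the right. On the left the GC-poor genes Dnajb9, Hsp90b1 and Dnajc3 lie below 0 and Calr, P4hb and Sdf2l1 well above, while on the right most members lie above 0 over the whole range.

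Wild type libraries were close to each other in these genes. The coefficient of variation of CPM had a median of 4.89% over the members in wild type and 13.0% in Hdac3 CKO, and 31 of 35 members varied more in Hdac3 CKO. Over 16063 tested genes with a mean of at least 1 CPM the medians were 10.2% and 16.6%, and 11569 of them varied more in Hdac3 CKO. The members were not matched to these genes in abundance, and Derl3 lay below 1 CPM. Of the 35 members, 16 had their highest value in replicate 1 of Hdac3 CKO and 8 their lowest. Replicate 2 held the highest value of 11 members and the lowest of 2.

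The members were set beside collagen I, the main secreted cargo of bone. The 35 members summed to 4069, 4296 and 4179.8 CPM in wild type and to 5218, 5434 and 4935 CPM in Hdac3 CKO, means of 4181 ± 114 and 5196 ± 250.2 CPM (SD, n = 3). The groups did not overlap. As a share of all counts, which TMM factors do not touch, they made up 0.446% ± 0.0212 in wild type and 0.488% ± 0.0397 in Hdac3 CKO (SD, n = 3), and these shares overlapped. Col1a1 and Col1a2 together reached 43038, 46696 and 55853 CPM across wild type libraries, against 95547, 76729.6 and 64627 CPM across those of Hdac3 CKO, with log2 fold changes of 0.75 ± 0.23 (adjusted p 0.179) and 0.64 ± 0.21 (adjusted p 0.198) in edgeR's quasi-likelihood test. Neither passed. Per 100 collagen I counts there were 9.45, 9.20 and 7.48 counts of members in wild type and 5.46, 7.08 and 7.64 in Hdac3 CKO. The ratio was lowest in replicate 1 of Hdac3 CKO, where collagen I was highest, and replicate 3 of Hdac3 CKO lay above replicate 3 of wild type, so the groups overlapped.

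**Figure D4:**
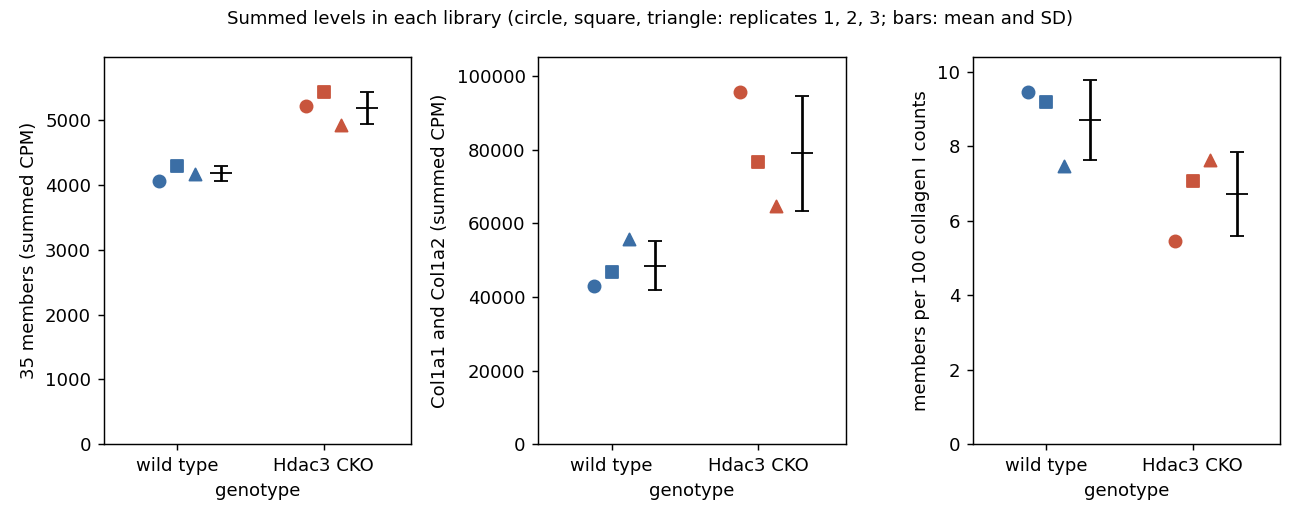
Points give each library and bars the mean and SD of each genotype (n = 3) for the summed CPM of the 35 members, the summed CPM of Col1a1 and Col1a2, and the number of member counts per 100 collagen I counts. The genotypes separate in the first 2 panels and overlap in the third.

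A further 8 lists with 150 genes, of which 149 were tested, covered other ER genes and, as a list of its own, the ATF4 amino acid response. Their log2 fold changes were below 0 in 33 and above 0 in the rest, with a median of 0.19. In 71 genes the libraries did not overlap in either direction, against 22.5% of all tested genes. Of the 149 genes 4 rose and 0 fell (edgeR, adjusted over all tested genes), against 0.703% and 0.475% of all tested genes. All 4 were in the list of the ATF4 amino acid response, where 4 of 14 rose, with 11 of 14 genes above 0 and a median of 0.58. They were the transcription factor Atf5, the stress protein Nupr1, the glutathione-degrading enzyme Chac1 and the pseudokinase Trib3. The part of PERK or of the ER in their rise was not tested. Atf5 stood at 28.9, 31.7 and 31.7 CPM across wild type libraries, against 104, 80.1 and 92.9 CPM across those of Hdac3 CKO and rose by 1.59 ± 0.14 (SE) on the log2 scale. Nupr1 rose by 1.68 ± 0.22 (SE), Chac1 by 2.74 ± 0.41 (SE) and Trib3 by 1.57 ± 0.29 (SE). Of all 8 lists, 1 gene passed as higher on leaving out wild type replicate 1 or 2, 2 did on leaving out Hdac3 CKO replicate 1 or 3 and 0 without both replicates 3. DESeq2 called 15 higher and 2 lower, against 2.31% of all the genes it tested called higher and 4.20% in either direction.

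In the other 7 lists 0 genes passed the test. Their counts above 0 stand beside 50.1% of all tested genes. The COPII coat and cargo receptors had 22 of 24 genes above 0 and a median of 0.27, with the smallest p in Surf4 (0.65, adjusted p 0.057), a cargo receptor, and Kdelr3 (0.52, adjusted p 0.091), which returns escaped chaperones to the ER. The translocon, signal peptidase and oligosaccharyltransferase list had 21 of 26 genes above 0 and a median of 0.19, led by Stt3a (0.50, adjusted p 0.083) and Rpn1 (0.53, adjusted p 0.094), both subunits of the transferase. Sensors and transcription factors had 17 of 19 genes above 0 and a median of 0.25, with Creb3 (0.54, adjusted p 0.094), a membrane-bound factor of the Atf6 type, and Nfyb (-0.49, adjusted p 0.118), a subunit of the CCAAT factor NF-Y. The further ERAD genes had 18 of 22 genes above 0 and a median of 0.18, with Ube2g2 (0.46, adjusted p 0.126) and Nploc4 (0.45, adjusted p 0.186). Further chaperones had 12 of 17 genes above 0 and a median of 0.17, with Clgn (1.51, adjusted p 0.344) and Creld1 (0.39, adjusted p 0.376). The lectin cycle had 6 of 10 genes above 0 and a median of 0.11, with Mogs (0.49, adjusted p 0.160) and Prkcsh (0.37, adjusted p 0.236). Further thioredoxin-fold and oxidation genes were split, with 9 of 17 genes above 0 and a median of 0.048, from Qsox1 (0.73, adjusted p 0.057), a secreted sulfhydryl oxidase, to Txndc16 (-0.58, adjusted p 0.108). Adjusted p-values are from edgeR's quasi-likelihood test.

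The 12 members whose promoter held an ERSE or ERSE-II had log2 fold changes from -0.27 (Ero1lb) to 0.77 (Derl3) with a median of 0.34, and 6 of them were higher without overlap. The 19 members with a window and no match ranged from -0.13 (Ero1l) to 0.65 (Sdf2l1) with a median of 0.18, and 10 were higher without overlap. Over all tested genes 11.5% were higher without overlap. The element as spelled marked the genes at both ends of the range, but both had low counts. Derl3 had 10 to 33 counts per library, with overlap, and Ero1lb had 155 to 250. Sdf2l1, the next highest, had no match, and the difference between the sets was not tested.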

How the data were processed

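The submitters' processing notes name the mm10 build and the tools bcl2fastq (version 1.8.4), TopHat2 (version 2.1.0), featureCounts and Subread. The authors deposited whole-number counts per gene for each library and RPKM values, which scale counts by gene length and by a divisor for each library. This divisor was not the library total of the counts. It lay above that total in every library and was largest in wild type replicate 1, so scaling by RPKM and by library totals differ. Strand setting, annotation release and the handling of multiply matching reads were not stated. Per the labels' protocols, RNA was extracted with TRIzol and libraries were made with a TruSeq v2 mRNA kit.

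In edgeR 4.0.16 (R 4.3.3), filterByExpr removed low counts and TMM set the scaling. The 2 genotypes were compared without covariates by the quasi-likelihood test (robust moderation), with 4 residual degrees of freedom. Adjustment was by Benjamini-Hochberg over 20210 genes, at a threshold of 0.05. Standard errors and 95% intervals come from this fit. With 3 against 3 libraries an exact permutation test cannot go below p = 0.1, so none is given. The procedure was tested on simulated data, in which the share of false calls was above the threshold. Same-genotype libraries differed by more than sampling noise in 52.6% to 71.7% of genes, so none was a mere repeat sequencing of another. Whether separate libraries came from the same pup cannot be told from these values. GC content is that of the longest GENCODE M21 transcript and was known for 98.8% of tested genes. Alternatives were other scaling factors, filters and moderation, DESeq2 1.42.0, limma-voom and limma 3.58.1 on log2(RPKM + 1) or log2(RPKM + 0.1), GC and length offsets, and leaving out libraries. The offsets without Hdac3 CKO replicate 1, the fit with per-gene dispersions, and the repeated counts of members above 0 and without overlap were added after seeing the data.

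The members, lists and motifs were chosen with earlier results of these data known. All members are accounted for, with values in every library for the markers Hspa5 and Sdf2l1, the 14 members with the smallest p, the sensors and Xbp1, and with the lowest and highest fold change named. Of each list the genes that passed are named, otherwise the 2 with the smallest p. Hsp90b1, Dnajc3, Dnajb9 and Canx are given in full by a choice made after their values were seen. Protein sequences were not analysed here. Per-sample columns without a matching label numbered 0.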

Additional observations from a re-analysis of the deposited data

How the results depend on the processing

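No paired analysis was possible because the labels give the libraries no shared replicate numbers. In edgeR and limma 0 members passed under each alternative except the GC and length offsets, with 2 higher, and DESeq2, with 4 higher. Leaving out 1 library at a time gave 0 members called, a median of the members from 0.19 to 0.24 and 19 to 25 members higher without overlap, against 14.7% to 18.1% of all tested genes. The median was 0.011 with library totals, 0.057 with log2(RPKM + 1), 0.068 with log2(RPKM + 0.1), 0.32 with GC and length offsets, 0.28 with both replicates 3 left out and 0.27 with the offsets without Hdac3 CKO replicate 1. The count without overlap was 7 with library totals and 5 with deposited RPKM, and the count above 0 was 18 with library totals. Over all genes 238 were called, with 23 to 175 on leaving out 1 library, namely 23 without wild type replicate 1, 35 without replicate 2, 105 without replicate 3 and 46 without Hdac3 CKO replicate 3, and 829 with DESeq2, 157 with limma-voom, 96 with log2(RPKM + 1), 140 with log2(RPKM + 0.1), 384 with GC and length offsets and 0 with both replicates 3 left out. Of these calls 59.7% were higher in Hdac3 CKO with TMM factors (142 genes), 32.6% with library totals (58 genes) and 38.5% with log2(RPKM + 1). Of the genes in the 8 further lists 4 rose with all libraries, each of them in the list of the ATF4 amino acid response. Over all these lists 1 to 4 rose on leaving out 1 library, 7 with no filter, 15 with DESeq2 and 0 with both replicates 3 left out. None fell except 2 with DESeq2, which called 2.31% of all the genes it tested higher and 4.20% in either direction. Members near 0 changed sign, none of them called, and the cause was not tested. With library totals the values were Ern1 -0.11, Atf6 -0.14, Eif2ak3 -0.028, Pdia4 -0.00021, Edem1 -0.0034, Pdia6 -0.0055, Canx -0.090, Sel1l -0.14, Derl2 -0.13, Os9 -0.16 and Dnajb9 -0.16. On log2(RPKM + 1) in limma the values were Ern1 -0.057, Atf6 -0.073, Canx -0.054, Sel1l -0.072, Derl2 -0.063, Os9 -0.10 and Dnajb9 -0.13. On log2(RPKM + 0.1) in limma the values were Ern1 -0.085, Atf6 -0.088, Canx -0.055, Sel1l -0.078, Derl2 -0.084, Os9 -0.10 and Dnajb9 -0.16. With GC and length offsets the values were Ero1l 0.17, Dnajc3 0.15, Os9 -0.12, Hsp90b1 0.22 and Erp44 0.29. With those offsets and without Hdac3 CKO replicate 1 the values were Ero1l 0.066, Dnajc3 0.24, Os9 -0.13, Hsp90b1 0.30 and Erp44 0.12. Without both replicates 3 the values were Ern1 -0.11, Atf6 -0.0080, Sel1l -0.011, Derl2 -0.035, Edem2 0.034 and Dnajb9 -0.0017. Single changes of sign were Erp44 at 0.00064 with RLE factors, Erp44 at 0.0059 with DESeq2, Dnajb9 at -0.010 with upper quartile factors, Dnajb9 at -5.8e-05 with no filter, Dnajb9 at -0.0081 with a filter of 1 CPM in 3 libraries and Dnajb9 at -0.036 with limma-voom. Leaving out 1 library at a time gave ranges of Atf6 -0.013 to 0.11, Canx -0.018 to 0.21, Derl2 -0.039 to 0.13, Dnajb9 -0.27 to 0.18, Dnajc3 -0.27 to 0.12, Edem2 -0.18 to 0.085, Ern1 -0.10 to 0.22, Erp44 -0.044 to 0.037, Hsp90b1 -0.25 to 0.18, Os9 -0.050 to 0.060 and Sel1l -0.021 to 0.11. Ranges on leaving out 1 library that kept their sign and moved by over 1.5 times were Hyou1 0.25 to 0.45, Sec61b 0.16 to 0.38, Derl3 0.16 to 1.05, Edem1 0.11 to 0.23, Pdia6 0.12 to 0.25, Eif2ak3 0.10 to 0.21 and Ero1l -0.25 to -0.068. Counts of Derl3 and Ero1lb were low.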

Other observations

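The ERSE also occurred in the promoter windows of 27 genes outside the 35 members, of which 10 were tested and 0 passed in edgeR's quasi-likelihood test, with 6 above 0 and a median log2 fold change of 0.16. The block CCACG alone was present in 83.9% of the members with a window and in 35.5% of all genes with one.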
